A study of Mus musculus with 2 samples.

Results

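The cells described here were fibroblasts of the mouse mammary gland in which at least 2 UMIs (unique molecular identifiers, each standing for 1 captured mRNA molecule) of Pi16 and Dpp4 together were read. They were 99 of the 15632 cells kept, 57 of 6297 in the Ctrl library and 42 of 9335 in the CL library, and are called Pi16/Dpp4 fibroblasts. A cell counted as a fibroblast where Col1a1, Col1a2, Col3a1, Dcn and Lum made up at least 1% of its UMIs, where Dcn and Lum outnumbered the pericyte genes Rgs5 and Notch3 and the type I collagens outnumbered the keratins Krt8, Krt18 and Krt14, and where Ptprc, which encodes CD45, was not read. The fibroblasts with 0 UMIs of both genes, 153 in Ctrl and 140 in CL, are called the other fibroblasts. The glands came from adult female mice whose age the labels give as 9 to 10 weeks and the protocol as 8 to 10 weeks. Mice of the CL group received clodronate liposomes, which phagocytes take up and which kill them, by repeated intraperitoneal injection, and Ctrl mice are labelled as controls. The methods describe the mice as wild type. Dissociated glands were sorted into CD45+ immune cells and CD31-TER119- cells, and the 3' transcript ends of the pooled cells were sequenced by droplet single-cell RNA-seq. There was 1 library in each group, the number of mice behind it and the proportion in which the gates were pooled are not given in the sources used here, and differences between the libraries therefore have no replicate check and no p-value.

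Total depth was 118743318 UMIs in Ctrl and 155765480 in CL, with a median of 11910 and 10853 UMIs per kept cell. Macrophage markers were not lower in the library labelled as treated. Summed over 12 genes and all kept cells, with immune cells not set apart, they stood at 337 CPM (UMIs of a gene per 1000000 UMIs read) in Ctrl and 574 CPM in CL, and Adgre1, which encodes F4/80, was at 1.41 and 2.77 CPM. The groups are therefore named below as the libraries labelled Ctrl and CL. Intervals given in square brackets are exact 95% intervals that cover counting error only, not the spread between mice or between cells.

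Fibroblasts make the collagens, proteoglycans and elastic fibres of the stroma, and in several tissues they fall into classes by position. Pi16, which encodes peptidase inhibitor 16, and Dpp4, which encodes the cell surface dipeptidase CD26, are known as markers of fibroblasts of the vessel adventitia and of fascia, a class in which progenitor activity has been described and which carries Cd55, Cd248, Ly6a, Ly6c1, Anxa3, Pcolce2 and Sema3c. Other fibroblasts of the gland lie nearer to the epithelium or belong to the adipocyte lineage.

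The cells were rich in fibroblast transcripts, some of which the rule had used. The fibroblast marker list added up to 58514 CPM (Ctrl) and 47092 CPM (CL). Dcn, which encodes the proteoglycan decorin, was at 16151 CPM in Ctrl and 13724 CPM in CL, and Col1a1, a chain of type I collagen, at 10111 and 5893 CPM. Collagen, Dcn and Lum reads, which the rule used, made up a median of 4.17% and 2.64% of the UMIs of a cell. Mfap5, a microfibril protein and a marker of the adventitial class, was at 983 CPM in Ctrl against 876 CPM in the other fibroblasts, and at 1174 against 535 CPM in CL, log2 ratios of 0.17 [0.02, 0.31] and 1.13 [0.95, 1.32].

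The rest of the adventitial markers bore out the label only in part. Leaving out the rule genes, 22 adventitial markers summed to 8375 CPM in the Pi16/Dpp4 fibroblasts and 7875 CPM in the other fibroblasts of Ctrl, and to 9613 and 8919 CPM in CL. The log2 ratios were 0.09 [0.04, 0.14] and 0.11 [0.05, 0.16], so the sum, in which abundant genes weigh most, was nearly the same in both kinds of fibroblast. Gene by gene the list leaned higher in the Pi16/Dpp4 fibroblasts, with a median log2 ratio of 0.43 in Ctrl and 0.84 in CL where that of all genes was -0.05 and -0.01. Of its 17 members with enough UMIs to be compared, 12 were above 0 in both libraries and 2 below. The sum did not follow the amount of Pi16 and Dpp4 alike in the libraries, at 7875 CPM with 0 UMIs and 7579 CPM with 5 or more in Ctrl and at 8919 and 10996 CPM in CL. Of the same 17, 2 were past 2-fold higher in both libraries, where 0.377% of all genes compared were, Anxa3, which encodes a calcium-dependent phospholipid-binding protein, and Opcml, a cell adhesion molecule. Since few of the markers passed 2-fold, the cells are named by their rule and not by a position in the tissue.

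Markers of other cell types were low, in part by choice of the cells, since the rule for a fibroblast used Ptprc, the pericyte genes Rgs5 and Notch3 and the keratins Krt8, Krt18 and Krt14. The macrophage list stood at 32.5 and 46.3 CPM, against 241 and 436 CPM in empty droplets, and 5 and 4 of the 12 genes were at 0. All 6 mesothelial markers were at 0 in both libraries. Of the T and NK cell markers 10 of 12 were at 0, with sums of 4.87 and 9.26 CPM. Endothelial markers summed to 40.6 and 25.5 CPM, with the defining genes Pecam1 and Tie1 at 0, and pericyte markers to 40.6 and 50.9 CPM, with Rgs5 at 0. Epithelial markers were the exception, at 1710.3 CPM in Ctrl and 1387 CPM in CL, which was below their 17803 and 18511 CPM in empty droplets. Of these UMIs 1 cell held 32.4% in Ctrl and 43.6% in CL, and the median cell was at 694 and 709 CPM. The part of free RNA in the epithelial markers was not tested.

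Pi16, at chr17:29317680-29330593 on the plus strand of GRCm38, carried most of the signal that chose the cells, and Dpp4 lies at chr2:62330073-62412231 on the minus strand. Both were counted from the 3' ends of their transcripts. It was read 410 times in Ctrl and 301 times in CL, that is 665 and 697 CPM, a log2 ratio of CL over Ctrl of 0.07 [-0.15, 0.28]. Dpp4 was read 39 and 48 times, 63.3 and 111 CPM, a log2 ratio of 0.81 [0.17, 1.46]. That direction turned to -0.35 with CPM averaged over cells, and to -0.50 within the cells that had a Dpp4 UMI. Both ratios are over cells that were chosen by these reads and describe the cells chosen. In empty droplets Pi16 was at 2.63 and 1.71 CPM and Dpp4 at 1.27 and 1.53 CPM. In Ctrl 46 cells had Pi16 alone, 4 had Dpp4 alone and 7 had both, and in CL the numbers were 30, 1 and 11. Most cells qualified through Pi16, and Dpp4 was sparse.

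The sum of both genes had a median of 4 UMIs per cell in Ctrl and 6 in CL, and reached 55 and 28. At the edge of the rule, 15 cells of Ctrl and 7 of CL had exactly 2 UMIs, just inside it, and 31 and 19 fibroblasts had 1 UMI, just outside. At the upper end 27 cells of Ctrl and 25 of CL had 5 or more, and 15 and 13 had 10 or more. Pi16/Dpp4 fibroblasts had more UMIs than the cells they were compared with, with a median of 10392 in Ctrl and 9992.5 in CL against 6517 and 4720.5 in the other fibroblasts and 7489 and 5639 in the cells with 1 UMI. Since a deeper cell reaches 2 UMIs more easily, depth and membership cannot be told apart at the edge of the rule.

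**Figure D1:**
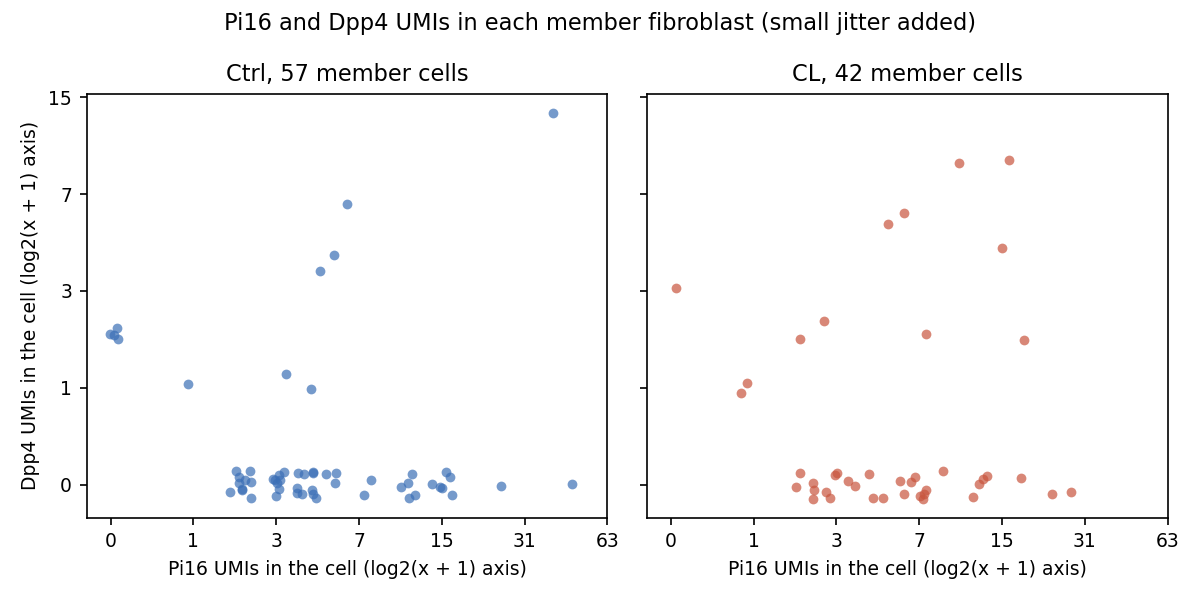
UMIs of Pi16 and Dpp4 in each Pi16/Dpp4 fibroblast of the libraries labelled Ctrl and CL, 1 point per cell with a small jitter, on log2(UMIs + 1) axes and with the cells called members in the title. Most points lie along the Pi16 axis with no Dpp4, and 11 cells of Ctrl and 12 of CL have at least 1 UMI of Dpp4.

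The Pi16/Dpp4 fibroblasts differed among themselves by Dpp4. This split was chosen after the data had been seen and is given as a description. Cells with at least 1 UMI of Dpp4 were 11 of 57 in Ctrl, 19.3% [10.0, 31.9], and 12 of 42 in CL, 28.6% [15.7, 44.6], a log2 ratio of the shares of 0.57 [-0.74, 1.89]. They held 14.4% of the UMIs of the Pi16/Dpp4 fibroblasts in Ctrl and 35.9% in CL. Their median depth was 8648 UMIs in Ctrl and 13102 in CL, against 10742.5 and 8423.5 in the cells with Pi16 only, so the order of the depths was opposite in the 2 libraries.

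Adventitial markers, whose sum had not set the whole group apart from the other fibroblasts, separated these subsets. They summed to 14905 CPM in the cells with Dpp4 and 7273 CPM in those with Pi16 only in Ctrl, and to 14376 and 6951 CPM in CL, log2 ratios of 1.04 [0.94, 1.13] and 1.05 [0.96, 1.14]. Cell by cell the medians were 15569 and 7249 CPM in Ctrl and 13184 and 6225 CPM in CL. The cells with Dpp4 ranged from 4897 to 25595 CPM and from 5196 to 32443 CPM, and those with Pi16 only from 2174 to 18543 and from 1567 to 14158 CPM, so the subsets overlapped. Of 2355 genes compared, 48 were at least 2-fold higher with Dpp4 in both libraries, which is 2.04%, and 70 were lower, which is 2.97%. Among 15 adventitial markers compared 8 were higher and 0 lower, and the median log2 ratio of the list was 1.48 in each library, where that of all genes was -0.08 and -0.16.

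The 8 markers were mostly surface proteins. Ly6c1, a GPI-anchored antigen, was at 585 CPM with Dpp4 and 19.0 CPM without it in Ctrl, and at 639 and 83.0 CPM in CL. Anxa3 was at 348 and 41.7 CPM in Ctrl and at 387 and 36.1 CPM in CL, log2 ratios of 3.06 [2.23, 3.92] and 3.42 [2.45, 4.56]. Cd55, the complement decay-accelerating factor, was at 247 and 39.8 CPM in Ctrl and at 562 and 54.1 CPM in CL. These 3 genes were all more than 4-fold higher with Dpp4 in each library. Ly6a, which encodes Sca-1, was at 1203 and 307 CPM in Ctrl and 1788 and 743 CPM in CL. Cd248, the stromal antigen endosialin, was at 259 and 43.6 CPM in Ctrl and 252 and 90.2 CPM in CL. Pcolce2, an enhancer of procollagen cleavage, was at 551 and 135 CPM in Ctrl and 342 and 112 CPM in CL. Ackr3, a scavenging receptor of CXCL12, was at 472 and 169 CPM in Ctrl and 368 and 57.7 CPM in CL. The last of the 8, Opcml, rested on 1 cell in Ctrl. Its log2 ratio there was 1.95. It was 0.15 when the Opcml UMIs of the cell with the most were left out of each subset, with total UMIs kept. With UMIs left out in the same way, the other 7 stayed past 2-fold in both libraries, the smallest at 1.03 for Ly6a in CL. Sema3c, a secreted semaphorin, had too few UMIs to be compared and was at 191 and 5.69 CPM in Ctrl and 232 and 18.0 CPM in CL.

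Secreted and matrix proteins were among the other genes higher with Dpp4. Fn1, which encodes fibronectin, was at 3563 and 616 CPM in Ctrl and 2201 and 603 CPM in CL. Dpt, the matrix protein dermatopontin, was at 2439 and 668 CPM in Ctrl and 1924 and 549 CPM in CL. Clec3b, which encodes the plasminogen-binding protein tetranectin, was at 1697 and 394.5 CPM in Ctrl and 1291 and 469 CPM in CL. The fold in these genes was smaller than in Ly6c1, Anxa3 and Cd55, but their levels with Dpp4 were higher. Of the complement genes, C3, the central component, was at 270 and 39.8 CPM in Ctrl and 800.5 and 79.4 CPM in CL, and C4b was also past 2-fold. Ptx3, a secreted pattern recognition protein, was at 1135 and 108 CPM in Ctrl and 1878 and 10.8 CPM in CL. Igfbp5, which binds insulin-like growth factors, had log2 ratios of 2.26 and 1.98.

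The elastic fibre genes Mfap4 and Eln went the other way. Mfap4 (chr11:61485431-61488900, plus strand), a microfibril-associated protein that binds elastin, was at 157 CPM with Dpp4 and 595 CPM with Pi16 only in Ctrl, and at 174 and 816 CPM in CL, log2 ratios of -1.92 [-2.81, -1.15] and -2.23 [-2.86, -1.65]. All UMIs of Mfap4 in cells with Dpp4 came from 1 cell in Ctrl and from 2 cells in CL. Eln (chr5:134702593-134747323, minus strand), which encodes elastin itself, was at 146 and 582 CPM in Ctrl and 194 and 473 CPM in CL. Summed per cell, Eln and Mfap4 had a median of 0 CPM with Dpp4 against 705 CPM with Pi16 only in Ctrl, and of 91.6 against 906 CPM in CL. Neither gene was read in 7 of 11 cells with Dpp4 and in 3 of 46 cells with Pi16 only in Ctrl, or in 5 of 12 and 3 of 30 cells in CL. Of the 7 cells in Ctrl 4 had at most 2774 UMIs, where a count of 0 does not show absence, and the 5 cells in CL had 11114 to 16085 UMIs. Of the 19 elastic fibre genes compared these were the 2 lower ones, and the list as a whole did not follow them. Its sum was 6598 CPM with Dpp4 and 5521 CPM with Pi16 only in Ctrl, a log2 ratio of 0.26 [0.13, 0.39], and 5642 and 6507 CPM in CL, a log2 ratio of -0.21 [-0.32, -0.09], with list medians of 0.30 and -0.30. Among the other members of the list, Efemp1, which encodes fibulin 3, was higher with Dpp4, at 1473 and 292 CPM in Ctrl and 813 and 332 CPM in CL.

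**Figure D2:**
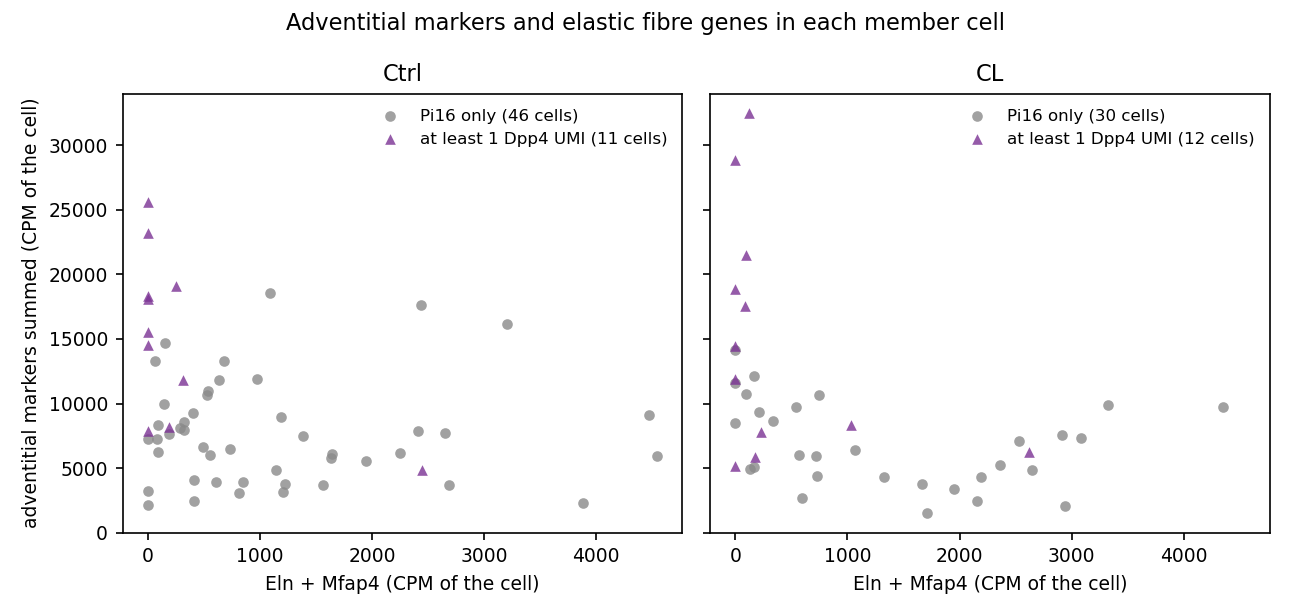
Summed CPM of the adventitial marker list (vertical) against that of Eln plus Mfap4 (horizontal) in each Pi16/Dpp4 fibroblast (member), 1 point per cell, by library and by whether the cell had a Dpp4 UMI. Cells with Dpp4 sit higher on the adventitial list, with medians of 15569 and 13184 CPM, and lower on Eln plus Mfap4, with medians of 0 and 91.6 CPM, and the subsets overlap on both.

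Further genes were higher with Pi16 only. Penk, which encodes the opioid precursor proenkephalin, was at 89.9 CPM with Dpp4 and 749 CPM with Pi16 only in Ctrl, and at 290.5 and 888 CPM in CL. Crabp1, a retinoic acid binding protein, was at 33.7 and 518 CPM in Ctrl and 226 and 866 CPM in CL. With Dpp4 it had 3 UMIs from 1 cell in Ctrl and 35 UMIs in CL, 77.1% of them from 1 cell. Rgcc, a regulator of cell cycle progression, was at 674.5 and 2731 CPM in Ctrl and 619.7 and 2829 CPM in CL. All 3 were thus abundant in the cells with Pi16 only. Lif, a cytokine of the interleukin 6 family, was at 33.7 and 419 CPM in Ctrl and 19.4 and 206 CPM in CL. Tbx3, a transcription factor needed for mammary development, was at 22.5 and 292 CPM in Ctrl and 19.4 and 101 CPM in CL. With Dpp4, Lif and Tbx3 rested on few UMIs in both libraries. Bgn, the small proteoglycan biglycan, was at 888 and 1946 CPM in Ctrl and 568 and 2346 CPM in CL. The proteases Mmp19 and Adamts4 were also lower with Dpp4. Adamts4 had only 3 UMIs with Dpp4 in Ctrl and 6 in CL, and its log2 ratio in CL was -1.10 [-2.69, 0.24], whose interval holds 0. Of 13 parenchymal and adipogenic fibroblast markers compared, Penk alone was past 2-fold, and the median of that list was -0.25 in Ctrl and -1.33 in CL. Epithelial markers moved with the split, at 854 CPM with Dpp4 and 1855 CPM with Pi16 only in Ctrl and 697 and 1772 CPM in CL. Their part in the split was not tested. Per cell their medians were 1003 and 666 CPM in Ctrl and 689 and 717 CPM in CL, with single cells with Pi16 only at up to 14295 and 10950 CPM.

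Compared with the other fibroblasts, the Pi16/Dpp4 fibroblasts differed in few genes. With the rule genes set aside, 5043 genes had at least 20 UMIs in the higher group of each library, and 19 of them, 0.377%, were at least 2-fold higher in the Pi16/Dpp4 fibroblasts in both libraries, while 35, 0.694%, were lower. The median log2 ratio of all genes was -0.05 in Ctrl and -0.01 in CL. Since the cells were chosen on reads of the same libraries and were deeper than the others, these ratios are descriptions.

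Elastic fibre genes were among those that were higher. Eln was at 519 CPM in the Pi16/Dpp4 fibroblasts and 141 CPM in the other fibroblasts of Ctrl, and at 373 and 63.1 CPM in CL, log2 ratios of 1.89 [1.60, 2.17] and 2.56 [2.11, 3.03], and was read in 39 of the 57 and 26 of the 42 cells. Mfap4 was at 532 and 158 CPM in Ctrl and at 586 and 91.2 CPM in CL, and was also read in 39 and 26 cells. In Ctrl the cells with Dpp4, at 146 CPM of Eln and 157 CPM of Mfap4, stood at about the level of the other fibroblasts. In CL they stood above it, at 194 CPM of Eln and 174 CPM of Mfap4 against 63.1 and 91.2 CPM. Lox, the enzyme that crosslinks elastin and collagen, was at 264.5 and 119 CPM in Ctrl and at 498 and 239.7 CPM in CL. These were 3 of 19 elastic fibre and microfibril genes compared, none of the list was past 2-fold lower, and the list's median was 0.27 and 0.82. Its sum was 5676 against 4146 CPM in Ctrl and 6197 against 3296 CPM in CL, log2 ratios of 0.45 [0.39, 0.52] and 0.91 [0.83, 0.99].

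Other matrix and growth factor binding proteins were higher as well. Cilp, a secreted matrix protein that binds TGF-beta, was at 105.5 and 13.7 CPM in Ctrl and at 197 and 7.01 CPM in CL, log2 ratios of 2.95 [2.12, 3.86] and 4.81 [3.63, 6.30], but it was read in 10 cells of Ctrl and 7 of CL only. Igfbp2, a binding protein of insulin-like growth factors, was at 292 and 45.6 CPM in Ctrl and at 405 and 86.5 CPM in CL, in 16 and 18 cells. Aspn, a small proteoglycan that binds collagen, was at 69.8 and 25.6 CPM in Ctrl and at 78.7 and 9.35 CPM in CL. Each of these genes was thus confined to a minority of the cells or low, unlike Eln and Mfap4. Col14a1, a collagen that associates with fibrils, was at 845 and 395 CPM in Ctrl and 623 and 278 CPM in CL. Sfrp2, a secreted Wnt modulator, was at 349 and 156 CPM in Ctrl and 799 and 375 CPM in CL. Arhgap20, a GTPase-activating protein, was at 182 and 48.4 CPM in Ctrl and 139 and 36.2 CPM in CL. Anxa3 was at 86.0 and 25.6 CPM in Ctrl and 162 and 31.6 CPM in CL, and in empty droplets at 101 and 107 CPM. It was past 2-fold through the cells with Dpp4, since those with Pi16 only were at 41.7 and 36.1 CPM.

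The order by amount of Pi16 and Dpp4 was not the same for all of these genes. In fibroblasts with 0, 1, 2 to 4 and at least 5 UMIs of the rule genes, Cilp stood at 13.7, 4.02, 14.5 and 179 CPM in Ctrl and at 7.01, 16.9, 33.8 and 281 CPM in CL. Igfbp2 was at 45.6, 68.4, 337 and 256 CPM in Ctrl and at 86.5, 287, 447 and 384 CPM in CL. Mfap4 was at 158, 241, 329 and 697 CPM in Ctrl and at 91.2, 287, 528 and 616 CPM in CL. Summed over cells, Cilp was therefore highest with at least 5 UMIs, whereas Igfbp2 was high from 2 to 4 UMIs in Ctrl and already at 1 UMI in CL. Few cells held the UMIs of Cilp. In CL 1 cell held 61.4% of its 44 UMIs with Pi16 only, and 1 cell held 58.5% of its 41 UMIs with Dpp4. Myoc, which encodes the secreted glycoprotein myocilin, went the opposite way, at 95.9, 4.02, 0 and 0 CPM in Ctrl and 97.0, 0, 0 and 3.52 CPM in CL.

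Myoc was nearly unread in these cells. It was read 0 times in the Pi16/Dpp4 fibroblasts of Ctrl and once in those of CL, against 105 and 83 UMIs in the other fibroblasts. With the count of 0 set to a floor of 3 UMIs in the group, the log2 ratio in Ctrl was at most -4.30, and with the 1 UMI of CL it was -5.39. A pair of lipid genes was lower too. Lpl, the lipase that hydrolyses lipoprotein triglycerides, was at 123 and 276 CPM in Ctrl and 231 and 694 CPM in CL. Fabp4, a fatty acid binding protein of adipocytes, had 3 and 11 UMIs in the Pi16/Dpp4 fibroblasts and 48 and 266 in the others. These were the 2 genes past 2-fold among 15 parenchymal and adipogenic fibroblast markers compared, whose median was -0.22 in Ctrl and -0.57 in CL. Of 12 secreted antioxidant and lipid carrier genes compared, 0 were past 2-fold in either direction, with medians of -0.16 and -0.14.

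Chemokines and cytokines were among the lower genes. Ccl11, the eosinophil attractant eotaxin, was at 448 and 1109 CPM in Ctrl and 370.4 and 1002 CPM in CL. Cxcl1, a neutrophil attractant, was at 600.4 and 1803 CPM in Ctrl and 1090.3 and 2220.1 CPM in CL. Il33, an alarmin cytokine, was at 35.7 and 169 CPM in Ctrl and 20.8 and 78.3 CPM in CL. With Cxcl5, a related chemokine with 6 and 20 UMIs, these were 4 of 17 chemokines and cytokines compared, against 0.694% of all genes. The median of that list was -0.43 in Ctrl and -0.72 in CL, and no member was past 2-fold higher. All 20 UMIs of Cxcl5 in CL came from 1 cell, and in cells with at least 5000 UMIs its log2 ratio in CL turned to 1.24. C2, a complement protease, was at 27.6 and 153 CPM in Ctrl and 39.4 and 194 CPM in CL. Acta2 and Krt17, a smooth muscle actin and a basal keratin, were also among the 35 lower genes, at a level in the Pi16/Dpp4 fibroblasts below that of the empty droplets. Without the tenth of cells with most UMIs the log2 ratio of Acta2 in CL turned to 0.035 [-1.25, 1.24].

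**Figure D3:**
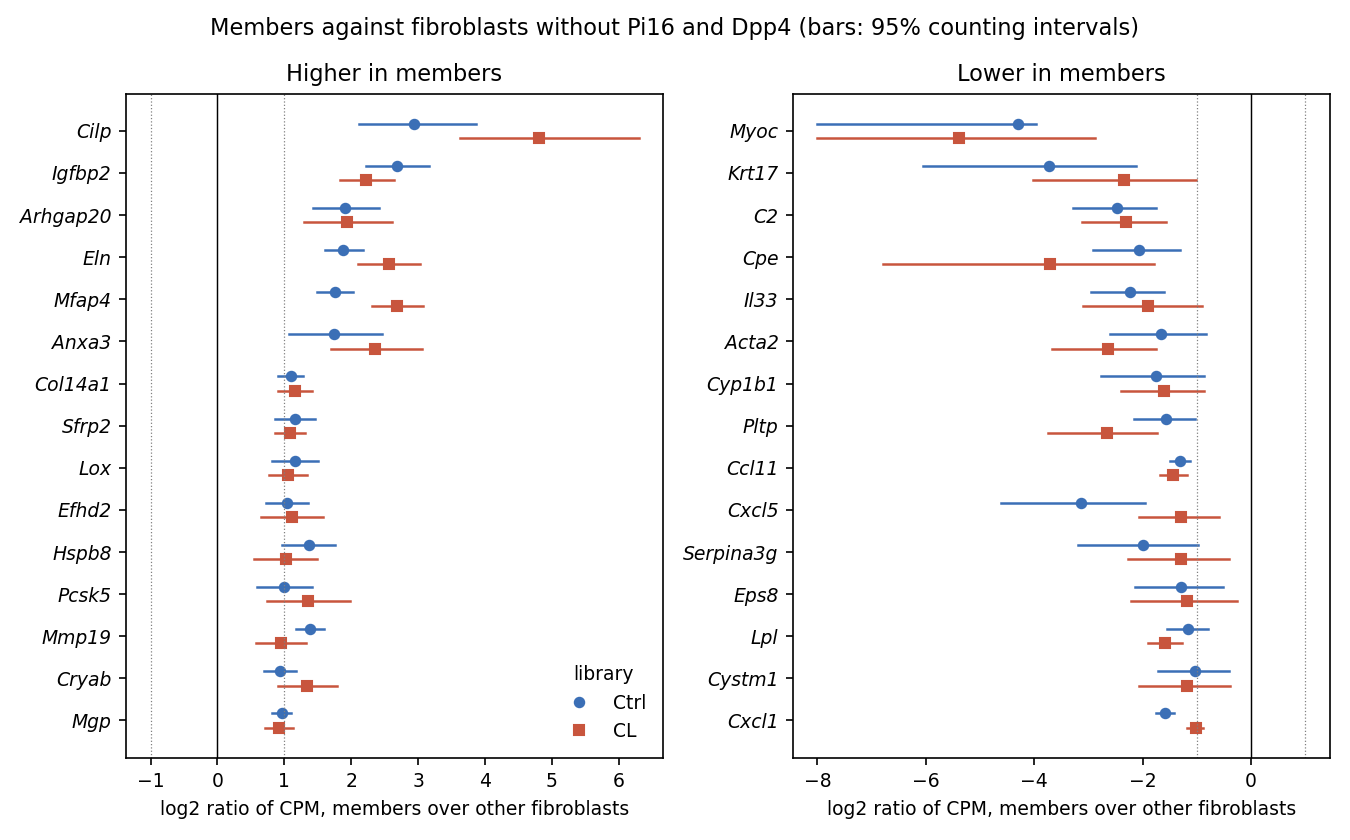
Log2 ratio of CPM in Pi16/Dpp4 fibroblasts (members) over other fibroblasts for the 15 genes in each direction chosen by size, in the libraries labelled Ctrl and CL, with 95% counting intervals that end at -8 where they reach further, dotted lines at 2-fold, and Myoc in Ctrl at its bound. Cilp, Igfbp2, Eln and Mfap4 lie to the right in both libraries, and Myoc, Il33, C2 and Ccl11 to the left, while Pcsk5, Mmp19, Cryab and Mgp do not reach 2-fold in both.

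Pi16/Dpp4 fibroblasts made up a smaller share of the cells in CL, as fibroblasts as a whole did, and about the same share of the fibroblasts. They were 0.905% [0.686, 1.17] of kept cells in Ctrl and 0.450% [0.324, 0.608] in CL, a log2 ratio of CL over Ctrl of -1.01 [-1.62, -0.41]. All fibroblasts were 3.83% and 2.15% of kept cells, a log2 ratio of -0.83 [-1.11, -0.55], and the other fibroblasts 2.43% and 1.50%, a log2 ratio of -0.70 [-1.04, -0.36]. As a share of the fibroblasts, 57 of 241 in Ctrl was 23.7% [18.4, 29.5] and 42 of 201 in CL was 20.9% [15.5, 27.2], a log2 ratio of -0.18 [-0.79, 0.42] whose interval holds 0. After each fibroblast was thinned to 1999 UMIs, the shares were 8.26% in Ctrl, 18 of 218, and 10.5% in CL, 19 of 181, and the log2 ratio was 0.35 [-0.66, 1.36]. The thinning left out 23 and 20 shallower cells and turned the direction. Shares of kept cells also depend on how many cells of each gate were pooled.

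Within the Pi16/Dpp4 fibroblasts 4469 genes could be compared between the libraries. Of these 125, 2.8%, were at least 2-fold higher in the library labelled CL and 216, 4.83%, were lower, and the median log2 ratio was -0.02. In the other fibroblasts that median was -0.07.

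Interferon-stimulated genes were higher in CL. Gbp2 (chr3:142620602-142638008, plus strand), a guanylate-binding GTPase of cell-autonomous defence, had 67 UMIs in 18 cells in Ctrl and 272 UMIs in 37 cells in CL, 109 and 629.6 CPM, a log2 ratio of 2.53 [2.14, 2.94] against 1.93 in the other fibroblasts. Thinned to 3517 UMIs per cell, 5.88% of the Pi16/Dpp4 fibroblasts of Ctrl and 73.2% of those of CL had a Gbp2 UMI, against 5.92% and 28.5% of luminal epithelial cells. In empty droplets Gbp2 was at 36.0 and 285 CPM, also higher in CL, and the part of free RNA in the ratio was not tested. Bst2, which encodes the virus-tethering protein tetherin, was at 107 and 456 CPM, a log2 ratio of 2.09 [1.68, 2.51], and after thinning it was read in 29.4% and 82.9% of the cells, against 28.7% and 44.3% of luminal cells. Both genes were higher in CL in the fibroblasts and in the luminal cells alike. Ifit1, an inhibitor of viral translation, was at 19.5 and 129.6 CPM, a log2 ratio of 2.73 [1.82, 3.77], but in only 4 and 10 cells. Ifi47, an interferon-inducible GTPase, was at 29.2 and 120.4 CPM, a log2 ratio of 2.04 [1.25, 2.90]. Irf1, a transcription factor of the interferon response, was at 82.8 and 259 CPM, a log2 ratio of 1.65 [1.16, 2.15] against 0.65 in the other fibroblasts. Within the subsets Irf1 was at 2.16 [1.54, 2.82] with Pi16 only and at 0.16 [-0.65, 1.02] with Dpp4.

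Type I interferon leads to binding of transcription factors at ISRE sequences and interferon gamma to binding at GAS sequences in the promoters of their target genes. Promoter sequences were read from RefSeq on GRCm38.p6 for the list genes past 2-fold in CL, 12 of 17 of which had an entry. An ISRE-type pattern, GAAA then any 2 bases then GAAA, searched on both strands in the 250 bases before the start, was found in 8 of the 12 genes, and in 936 of 27025 genes with a promoter entry, 3.46%. A GAS-type pattern, TTCNNNGAA, was found in 4 of the 12 and in 2197 genes with a promoter entry, 8.13%. The 12 genes came from lists of known interferon response genes, and list genes not past 2-fold were not set beside them. The shares therefore describe genes of such lists and not the difference between the libraries. The 150 bases before the start of 4 of these genes are shown because they carry the patterns in different arrangements, 5′ to 3′ on the strand of the gene, with matches in capitals. They lie at chr3:142620513-142620662 on the plus strand for Gbp2, chr19:34640739-34640888 on the plus strand for Ifit1, chr8:71537473-71537622 on the minus strand for Bst2 and chr11:58199406-58199555 on the plus strand for Igtp, an interferon gamma-induced GTPase.
Gbp2: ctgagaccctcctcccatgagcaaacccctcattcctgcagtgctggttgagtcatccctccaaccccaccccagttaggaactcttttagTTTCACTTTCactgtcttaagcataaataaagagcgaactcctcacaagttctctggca
Ifit1: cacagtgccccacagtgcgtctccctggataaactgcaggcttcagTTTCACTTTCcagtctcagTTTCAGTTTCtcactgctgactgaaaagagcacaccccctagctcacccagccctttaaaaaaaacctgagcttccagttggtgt
Bst2: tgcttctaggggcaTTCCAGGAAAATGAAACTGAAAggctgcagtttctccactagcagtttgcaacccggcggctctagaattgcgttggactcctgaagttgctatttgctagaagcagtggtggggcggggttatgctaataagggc
Igtp: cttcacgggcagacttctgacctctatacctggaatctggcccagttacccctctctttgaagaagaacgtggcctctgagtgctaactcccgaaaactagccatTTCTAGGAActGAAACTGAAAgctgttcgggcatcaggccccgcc
Gbp2 had 1 match of the first pattern, lying on the opposite strand, which began 59 bases before the start, and Ifit1 had 2, beginning at 104 and 85 bases. In Bst2 overlapping matches of the first pattern began at 130 and 124 bases and joined a match of the second at 136. In Igtp a match of the second pattern at 45 bases stood just before one of the first at 34. Distances are from the RefSeq start, and the annotated span of Gbp2 given above, from GENCODE, begins upstream of it, so that the match of Gbp2 lies inside that span. A match is a description of the letters and does not show binding in these cells.

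Both interferon lists were higher in CL. Of 22 type I interferon response genes found in the matrices, 9 had enough UMIs to be compared, and 7 of these were past 2-fold higher, Ifit1, Irf7, Rsad2, Bst2, Oasl2, Rtp4 and Ifi27l2a. Of the 9 compared, 8 were above 0 and 1, Isg15, was below. Isg15 had 93 UMIs in Ctrl and 37 in CL with Pi16 only, a log2 ratio of -0.40 [-0.99, 0.16], and 1 and 20 UMIs with Dpp4. The median of the list was 2.09, where that of all genes was -0.02, and its genes together were at 751 CPM (Ctrl) and 1701 CPM (CL), a log2 ratio of 1.18 [1.01, 1.35] against 1.06 in the other fibroblasts. Of 25 interferon gamma response genes 12 were compared and 10 were higher, among them Gbp2, Gbp3, Gbp6, Gbp7, Iigp1, Igtp, Ifi47, Irf1 and Cxcl10. Their sum was 670.2 and 2433 CPM, a log2 ratio of 1.86 [1.69, 2.03] against 1.54 in the other fibroblasts, and the list's median was 1.77 against 1.65. Cell by cell the sum had a median of 304 CPM in Ctrl, from 0 to 10489.5, and 1662 CPM in CL, from 231 to 9728. The ranges overlapped. In empty droplets the list was at 246 and 651 CPM, near the median cell of Ctrl and also higher in CL, and the type I list at 276 and 427 CPM. The part of free RNA in these ratios was not tested.

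Genes of antigen presentation on MHC class I moved with them. Of 16 compared, 10 were past 2-fold higher and the median was 1.13. H2-K1, a class I heavy chain, was at 667 CPM in Ctrl and 1618 CPM in CL. Psmb9, a subunit of the immunoproteasome, had a log2 ratio of 3.27 and Tap1, a peptide transporter, one of 2.35. The sum of the list was 2922 and 6083 CPM, a log2 ratio of 1.06 [0.97, 1.14], and 1.13 in the other fibroblasts. In empty droplets it was 4438 and 6156 CPM, so the level in the cells of Ctrl lay below free RNA and that of CL about at it. MHC class II genes had too few UMIs to be compared, 51.9 and 57.9 CPM summed, against 417 and 836 CPM in empty droplets.

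The sums of the interferon lists were higher in CL in both subsets. In the cells with Pi16 only the interferon gamma list was at 643 CPM in Ctrl and 2180 CPM in CL, a log2 ratio of 1.76 [1.57, 1.96], and in the cells with Dpp4 at 832 and 2886 CPM, a log2 ratio of 1.79 [1.44, 2.17]. The type I list had log2 ratios of 1.06 and 0.99. MHC class I genes were at 2653 and 6355 CPM in the cells with Pi16 only, a log2 ratio of 1.26, and at 4519 and 5597 CPM in those with Dpp4, a log2 ratio of 0.31 [0.14, 0.48].

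Other genes higher in CL had varied roles. C3 was at 73.0 CPM in Ctrl and 338 CPM in CL, a log2 ratio of 2.21 [1.72, 2.73], and 2.15 in the other fibroblasts. Within the subsets it was 1.00 [0.06, 1.93] with Pi16 only and 1.57 [0.93, 2.26] with Dpp4. Cd55 was at 69.8 and 236 CPM, a log2 ratio of 1.76 [1.23, 2.31], against -0.39 [-1.17, 0.36] in the other fibroblasts, and the difference between these ratios was not tested. Cd55 was high in the cells with Dpp4, which held more of the UMIs in CL, and its ratio within the subsets was 0.44 [-0.62, 1.47] with Pi16 only and 1.18 [0.50, 1.93] with Dpp4. Rcan1, an inhibitor of calcineurin, was at 35.7 and 159.7 CPM, a log2 ratio of 2.16 [1.45, 2.92], below its 230.2 and 224 CPM in empty droplets. Cxcl2, a neutrophil attractant, was at 87.6 and 604 CPM, a log2 ratio of 2.79 [2.36, 3.24], but it was read in 11 and 12 cells, 1 of which held 59% and 36% of the UMIs. Plac8, a small cysteine-rich protein, was at 61.7 and 303 CPM, less than in empty droplets, where it was at 376 and 542.5 CPM. Cxcl10, Cxcl13 and Ltf were past 2-fold with most of their UMIs in 1 cell.

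Genes lower in CL included signalling ligands and regulators. Gdnf, a neurotrophic factor, had 174 UMIs in 26 cells in Ctrl and 16 UMIs in 2 cells in CL, 282 and 37.0 CPM, a log2 ratio of -2.93 [-3.77, -2.19]. Ramp3, which modifies receptors of the calcitonin family, had 96 and 4 UMIs, 156 and 9.26 CPM, a log2 ratio of -4.07 [-5.98, -2.67]. In cells with Dpp4 Ramp3 was not read and Gdnf was read once, so nearly all UMIs of both came from the cells with Pi16 only. In the other fibroblasts they were lower in CL as well, with log2 ratios of -4.62 for Ramp3 and -2.21 for Gdnf. Cthrc1, a secreted protein of matrix-producing fibroblasts, was at 338 and 76.4 CPM, a log2 ratio of -2.14 [-2.72, -1.61]. Within the subsets Cthrc1 was at -2.45 [-3.21, -1.76] with Pi16 only and at -0.45 [-1.70, 0.83] with Dpp4. The ratio with Dpp4 rests on 11 UMIs in Ctrl and 14 in CL, and 1 cell held 78.6% of those in CL. Timp3, an inhibitor of metalloproteinases, was at 956 and 326 CPM, a log2 ratio of -1.55 [-1.83, -1.28] and -2.03 in the other fibroblasts. Tbx3 was at 253 and 71.8 CPM, a log2 ratio of -1.82 [-2.42, -1.26].

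In several of the lower genes the other fibroblasts did not show the same ratio, and none of these differences was tested. Plk2, a stress-inducible kinase, was at 350.5 CPM in Ctrl and 81.0 CPM in CL, a log2 ratio of -2.11 [-2.67, -1.59] against 0.58 [0.20, 0.96] in the other fibroblasts. Sox4, a transcription factor, was at 252 and 67.1 CPM, a log2 ratio of -1.91 [-2.53, -1.33] against 0.08. Sgk1, a kinase induced by serum and glucocorticoids, was at 836 and 275 CPM, a log2 ratio of -1.60 [-1.90, -1.31] against 0.02. In CL these 3 genes stood below their level in empty droplets, which was 163, 119 and 374 CPM. Ndrg1, a gene induced by hypoxia and differentiation, was at 980.1 and 262 CPM, a log2 ratio of -1.91 [-2.21, -1.61] against -0.61, and Odc1, the first enzyme of polyamine synthesis, at 1219 and 398 CPM, a log2 ratio of -1.61 [-1.86, -1.37] against -0.93. Within the subsets, Plk2 and Ndrg1 were lower in CL in both, at -1.99 and -1.97 with Pi16 only and -1.39 and -1.04 with Dpp4. Sgk1 and Odc1 were at -2.39 and -1.58 with Pi16 only and at 0.69 [0.01, 1.41] and 0.20 with Dpp4.

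**Figure D4:**
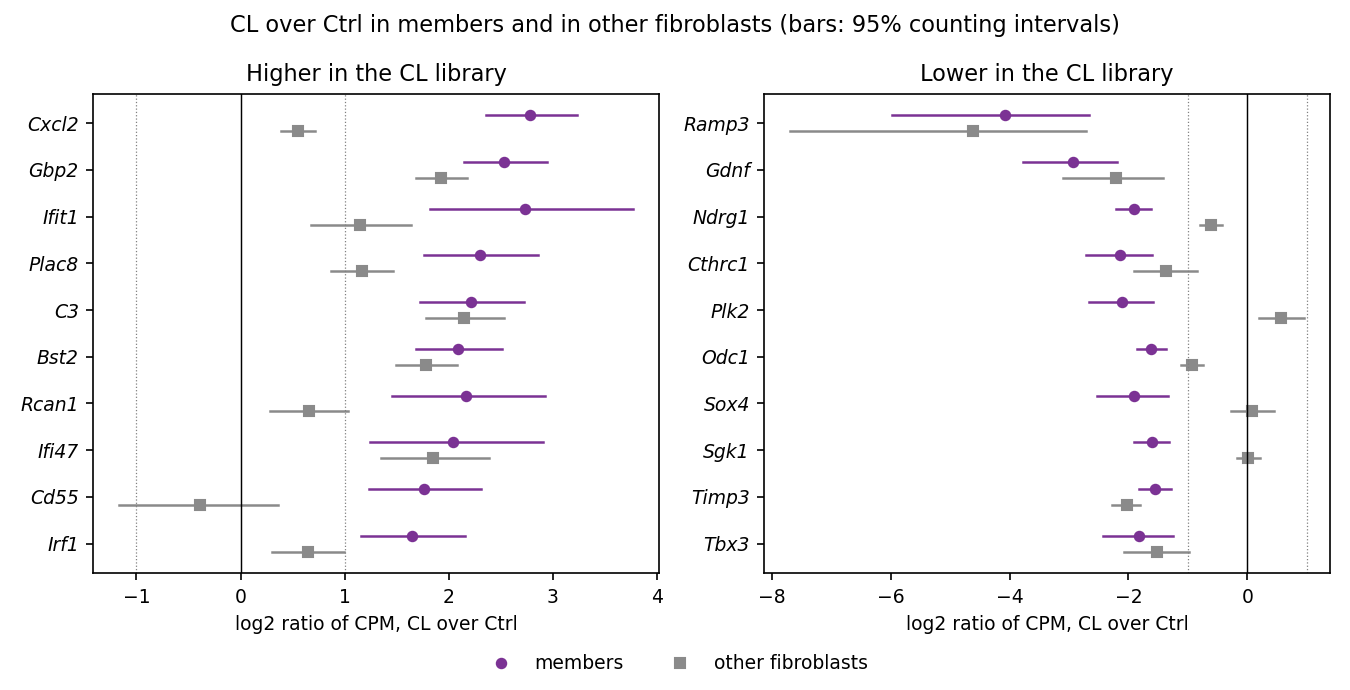
Log2 ratio of CPM in the library labelled CL over that labelled Ctrl for the 10 genes in each direction chosen by size, in Pi16/Dpp4 fibroblasts (members) and in other fibroblasts, with 95% counting intervals and dotted lines at 2-fold. Gbp2, C3, Bst2 and Ifi47 lie to the right in both kinds of fibroblast, while Cd55, Plk2, Sox4 and Sgk1 differ between them.

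Matrix genes as lists differed less than the interferon genes. Fibrillar collagens together were at 33659.5 CPM (Ctrl) and 21465 CPM (CL), a log2 ratio of -0.65 [-0.68, -0.61], and -0.58 in the other fibroblasts. The rule genes Col1a1, Col1a2 and Col3a1 held 80.6% and 78.7% of the UMIs of this list, so its ratio is in large part a description of what chose the cells. Without them the remaining 9 genes were at 6514 and 4581 CPM, a log2 ratio of -0.51 [-0.59, -0.43], and -0.44 in the other fibroblasts. Of 12 compared only Col16a1, a fibril-associated collagen, was past 2-fold, and the median was -0.48. The log2 ratio of this list was -0.72 with Pi16 only and -0.70 with Dpp4. Elastic fibre genes summed to 5676 and 6197 CPM, a log2 ratio of 0.13 [0.05, 0.20] against -0.33 in the other fibroblasts, and 1 of 19, Fbn1, which encodes fibrillin 1, was past 2-fold higher. Within the subsets the list's ratio was 0.24 [0.15, 0.32] with Pi16 only and -0.23 [-0.38, -0.07] with Dpp4, so the direction turned in the latter. Matrix proteases and inhibitors summed to 10843 and 8623 CPM, and 2 of 14 were lower, Timp3 and the metalloproteinase Mmp19, at 745 and 282 CPM. Of 13 basement membrane genes 1, Nid2, was lower, and of 11 collagen processing enzymes none was past 2-fold in either direction.

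The adventitial list was at 8375 CPM (Ctrl) and 9613 CPM (CL), a log2 ratio of 0.20 [0.14, 0.26], and 5 of 18 were past 2-fold higher, Cd55, Sema3c, Ly6c1, Ly6a and Fbn1. Within the subsets the list's ratio was -0.07 [-0.15, 0.01] with Pi16 only and -0.05 [-0.15, 0.05] with Dpp4, where the sum over both subsets was higher in CL. Of 15 parenchymal and adipogenic markers 5 were lower, G0s2, Fmo2, Smoc2, Vcam1 and Sparcl1, with a median of -0.11. The ratio of this list's sum was 0.06 [-0.02, 0.14]. Within the subsets it was 0.36 [0.27, 0.45] with Pi16 only and -0.55 [-0.76, -0.33] with Dpp4. Of 18 chemokines and cytokines 5 were higher, Cxcl2, Cxcl5, Cxcl10, Cxcl13 and Csf3, and 3 lower, Ccl8, Ccl19 and Lif, with a median of 0.20, where 2.8% and 4.83% of all genes compared were past 2-fold. In CL 1 cell held all 20 UMIs of Cxcl5, 81.8% of those of Csf3, 72% of those of Cxcl13 and 56.1% of those of Cxcl10. The ratio of the list's sum turned from 0.35 to -0.058 with Pi16 only and to -0.014 with CPM averaged over cells. With Dpp4 the sum was at 7576 CPM in Ctrl and 14079 CPM in CL, a log2 ratio of 0.89 [0.77, 1.02]. Of 22 growth factors Sfrp2 was higher, at 349 and 799 CPM, and Nrg1, an ErbB receptor ligand, and Gas6, a ligand of TAM receptors, were lower. Of 23 receptors Esr1, the estrogen receptor, was lower, at a log2 ratio of -1.12. Of 28 immediate early and dissociation stress genes 1, Egr3, was lower, and the median was -0.04, so this list, whose genes are known to respond to handling of tissue, stood near the median of all genes.

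**Figure D5:**
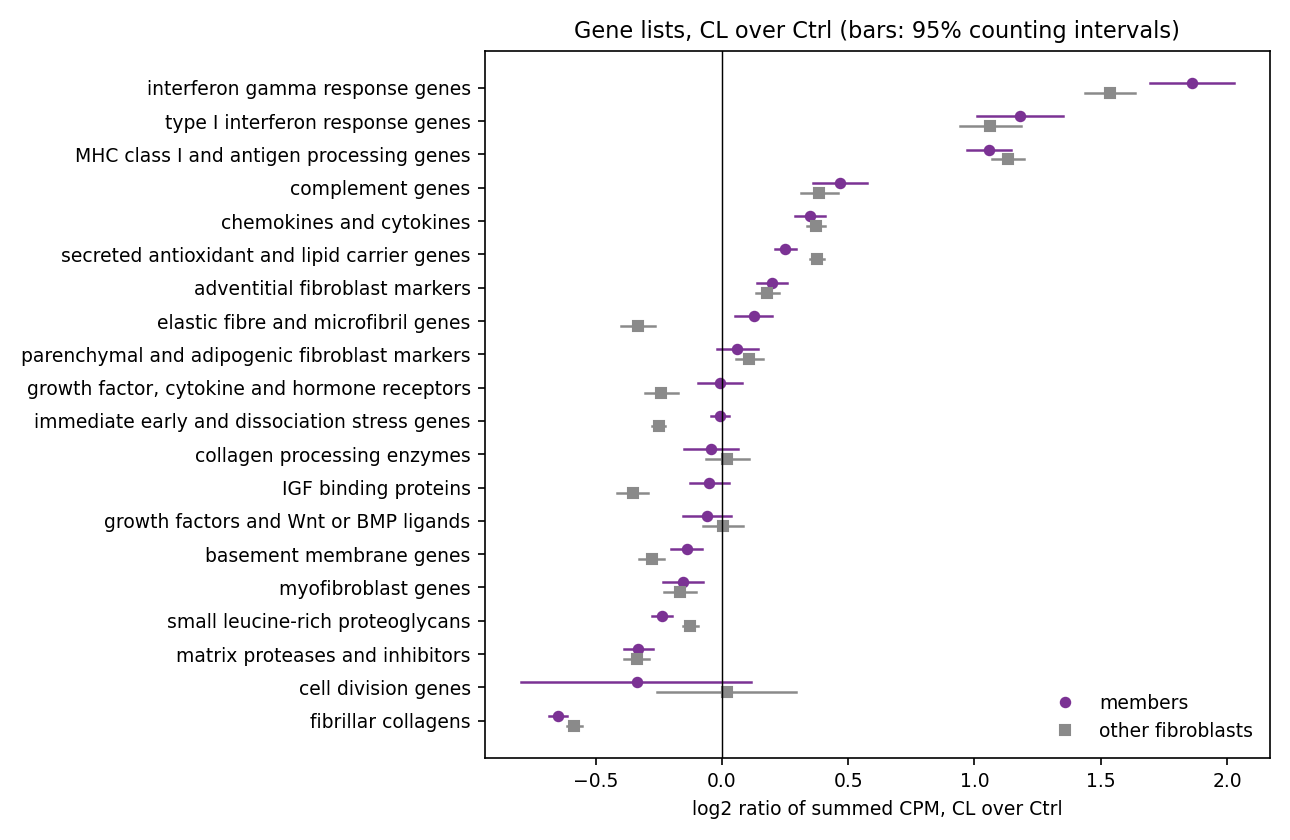
Log2 ratio of the summed CPM of each gene list in the library labelled CL over that labelled Ctrl, in Pi16/Dpp4 fibroblasts (members) and in other fibroblasts, with 95% counting intervals. The interferon gamma list stands at 1.86 and 1.54, the type I list at 1.18 and 1.06 and the MHC class I list at 1.06 and 1.13, while fibrillar collagens, mostly UMIs of collagens that the rule used, stand at -0.65 and -0.58.

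Mitochondrial genes took a median of 2.31% of the UMIs of a Pi16/Dpp4 fibroblast in Ctrl and 2.29% in CL. The cells held 616259 and 432003 UMIs in all, which sets the precision of the ratios above. Scrublet marked 3 Pi16/Dpp4 fibroblasts of Ctrl and 0 of CL as likely doublets, and 7 and 4 of the other fibroblasts. The libraries shared 22 candidate barcodes, none of which belonged to a Pi16/Dpp4 fibroblast in both.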

How the data were processed

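Mammary cells of 1 library labelled Ctrl and 1 labelled CL were sequenced by the authors on a 10x 3' platform. The submitters' processing notes name Cell Ranger 2.1.1 and mm10, and the deposited matrices, whose header names Cell Ranger 4, hold raw UMI counts per gene and barcode with empty droplets. Since the deposited barcode lists could not be matched to matrix columns, the 7217 and 10555 barcodes with most UMIs, as many as listed, were taken as candidates. Cells were kept with at least 500 genes and at most 15% mitochondrial UMIs. Fibroblasts needed at least 1% collagen, Dcn and Lum UMIs under the marker rule. Doublets were marked with Scrublet (scanpy 1.11.5), 425 (6.75%) and 724 (7.76%) cells, and were not removed. UMIs were summed over cells, divided by their total and multiplied to CPM, and ratios given exact conditional 95% intervals (Python 3.11, numpy 2.4.6, scipy 1.17.1). Figures used matplotlib 3.10.9. No test was made, since there was 1 library per group. Called genes had at least 20 UMIs in the higher group and a 2-fold ratio (log2 of 1), for fibroblast groups and the Dpp4 split in both libraries in the same direction. Named genes, each with at least 50 UMIs in the higher group, were the 10 per direction between libraries whose interval limit nearest to 0 was farthest from it, with no more than 50% of those UMIs in 1 cell, and the 15 per direction between fibroblast groups with the largest smaller ratio of both libraries, beside list members and the markers of the rule. Mitochondrial, ribosomal protein, haemoglobin, X-inactivation and Y-linked genes and unnamed gene models were left out. Genes named for the Dpp4 split were chosen after their values were seen. A count of 0 was set to a floor of 3 UMIs. There were 21 gene lists and 10 lists of cell type markers. The members and lists were chosen with earlier results of these data known. Gene positions came from GENCODE M21, which held 32235 of the 32285 gene IDs. The scripts were tested on simulated data. The effect of 15 alternative settings listed in advance and of those added after the data were seen (TMM factors were from edgeR 4.0.16) is given with the additional observations.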

Additional observations from a re-analysis of the deposited data

Results flagged for a closer look

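For 5 genes the log2 ratio of CL over Ctrl had opposite signs, past 2-fold each way, in the Pi16/Dpp4 fibroblasts and in the other fibroblasts. The difference between the ratios was not tested, and with 1 library per group each sign rests on 1 pair of libraries. Nrg1, an ErbB receptor ligand, was at -3.22 in the Pi16/Dpp4 fibroblasts, with 40 and 3 UMIs of which 1 cell held 40%, and at 1.03 in the others. Fam110a was at -3.95 with 22 and 1 UMIs, 68% of the former in 1 cell, and at 1.43 in the others, and its 35.7 and 2.31 CPM lay below the 106 and 92.9 CPM of empty droplets. Myo1e, an unconventional myosin, was at -1.66 with 27 and 6 UMIs, below its level in empty droplets, and at 1.03 in the others. Ltf, which encodes the milk protein lactoferrin, was at 1.76, with 93% of its UMIs in CL in 1 cell, and at -1.68 in the others, and its 61.7 and 208 CPM lay below the 201 and 358 CPM of empty droplets. Mbd1, a methyl-CpG binding protein, was at 1.33 with 33 and 58 UMIs, 54.5% of the former in 1 cell, and at -1.34 in the others.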

How the results depend on the processing

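Counts of genes past 2-fold depended on the UMI minimum. With at least 10 UMIs they were 313 higher and 484 lower in CL in the Pi16/Dpp4 fibroblasts, and 33 higher and 79 lower against the other fibroblasts. With at least 50 UMIs they were 42, 68, 11 and 16, where the reported counts were 125, 216, 19 and 35. With membership at 1 UMI 20 genes were lower than in the other fibroblasts, and 76 of the 125 and 122 of the 216 genes were shared, and with CPM averaged over cells 33 were higher. Without the tenth of cells with most UMIs, 62 and 128 of the 125 and 216 were shared.

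Some small list ratios turned. The immediate early list in CL, against the other fibroblasts, was at -0.026 with membership at 1 UMI and -0.036 with TMM factors. Adventitial markers, CL over Ctrl, were at -0.00147 with CPM averaged over cells, -0.065 with Pi16 only and -0.052 with Dpp4, and against the other fibroblasts in CL at -0.00376 with averaged CPM and -0.057 without the tenth of cells with most UMIs. Chemokines, CL over Ctrl, were at -0.014 with averaged CPM and -0.058 with Pi16 only, but at 0.89 with Dpp4. Within cells with Dpp4 elastic fibre genes were at -0.23 and myofibroblast genes at 0.10.

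Among genes, CL over Ctrl, Odc1 was at 0.20, Sgk1 at 0.69, Dpp4 at -0.50 and Mfap5 at -0.0935 within cells with Dpp4, and Dpp4 at -0.35 with CPM averaged over cells. Against the other fibroblasts in CL, Acta2 was at 0.035 without the tenth of cells with most UMIs and Cxcl5 at 1.24 in cells with at least 5000 UMIs. The cause of these turns was not tested. Across all other settings 1007 gene values stayed within the interval of the reported value and 108 moved outside it, as did 555 and 175 list values. The settings that split the cells by Dpp4, and the one without the collagens of the rule, were chosen after seeing the data. No paired analysis was possible because each group had 1 library, and leaving out a replicate was not possible for the same reason.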
